A study of Rattus norvegicus with 9 samples.

Results

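The genes described here are those of the rat major histocompatibility complex (MHC), which in the rat is called RT1, together with genes that make, carry and load the peptides its class I proteins present. They were chosen by symbol from a table of 32623 genes: every symbol that starts with RT1-, plus B2m, Tap1, Tap2, Tapbp, Nlrc5, Psmb8, Psmb9 and Psmb10. The rule found 39 genes, of which 31 are RT1 genes and 8 are not. Its terms hold no measured value, but the set and the lists below were chosen with earlier results of these data known. Counts of called genes among them are therefore not independent of these data. The RT1 genes divide by their descriptions into 21 class I and 10 class II genes. The table places the RT1 genes, Tap1, Tap2, Tapbp, Psmb8 and Psmb9 on chromosome 20, B2m on chromosome 3, and Psmb10 and Nlrc5 on chromosome 19.

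RNA was sequenced from primary aortic vascular smooth muscle cells of wild-type rats at passages 4 to 8, in 3 groups with 3 libraries each. The PDGF-BB+PTUPB group received 0.5 µM PTUPB, a dual inhibitor of cyclooxygenase-2 and soluble epoxide hydrolase, for 2 h and then PDGF-BB, a growth factor that drives smooth muscle cells towards proliferation, for 24 h. The PDGF-BB group received PDGF-BB for 24 h, and the Control group an equal volume of DMSO. For PDGF-BB, the sample labels give a dose of 10 ng/mL, whereas the design text gives 20 ng/mL. Cells of all groups were starved of serum for 12 h and treated in 2% serum. The study asked how PTUPB acts on the phenotypic change that PDGF-BB induces. PTUPB was not given without PDGF-BB in these libraries. Nothing in the labels states that replicate libraries are independent cultures or animals, and p-values therefore rest on library-to-library spread that may be technical alone.

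Class I molecules are heavy chains that pair with the small B2m protein and show peptides from inside the cell to CD8 T cells and natural killer cells. The peptides are cut by the proteasome, moved into the endoplasmic reticulum by the Tap1 and Tap2 transporter, and loaded with the help of tapasin, the product of Tapbp. In most cell types interferons raise this whole set, largely through the factor Nlrc5 and through STAT and IRF factors. Class II molecules present peptides from outside the cell and are mainly made by professional antigen-presenting cells.

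Counts summed to between 12729187 and 16911050 per library, and the 39 genes together took 0.0835% to 0.109% of them, of which B2m alone took 0.0627% to 0.0783%. Control replicate 2 and PDGF-BB replicate 3 stood apart from the other libraries of their groups. Their counts differed from those of the other 2 libraries of the group with a chi-square of 21.8 to 36.3 per degree of freedom, against 5.98 to 8.85 for the other pairs. Smooth muscle markers were present in every library at a summed FPKM (fragments per kilobase of exon, scaled to library depth) of 2207 to 2466 in PDGF-BB+PTUPB, 2168 to 2531 in PDGF-BB and 1742 to 2372 in Control. Of the markers of other cells, Ptprc of leukocytes and Cdh5, Tie1 and Kdr of endothelial cells were at 0 in every library. Cd14, Cd68, Lyz2, Csf1r and Itgax of myeloid cells and the endothelial genes Egfl7 and Tek were detected in all 9. Csf1r, Itgax and Tek stayed at or below 0.56 FPKM.

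Promoter windows of some genes of the set are shown here. Whether their sequences bear on the results below was not tested. RefSeq's table for the GRCr8 build held a window of 250 bases before to 50 bases after the annotated start for 34 of the 39 genes. RT1-CE7, RT1-DMb, RT1-M2, RT1-M4 and Nlrc5 had none. Capitals mark each match, on either strand, to a consensus for the interferon-stimulated response element, which reads GAAA, any 2 bases and GAAA. The first 2 windows belong to the tested genes with the largest PDGF-BB change, the next 4 to other called genes, chosen because they hold a match, and B2m to the most abundant gene of the set, which was not called. They lie at chr20:2766054-2766353 (plus strand), chr20:2689083-2689382 (plus), chr20:2666239-2666538 (plus), chr20:2675278-2675577 (plus), chr20:4668494-4668793 (minus), chr20:4967828-4968127 (minus) and chr3:129549080-129549379 (plus).
RT1-T24-1: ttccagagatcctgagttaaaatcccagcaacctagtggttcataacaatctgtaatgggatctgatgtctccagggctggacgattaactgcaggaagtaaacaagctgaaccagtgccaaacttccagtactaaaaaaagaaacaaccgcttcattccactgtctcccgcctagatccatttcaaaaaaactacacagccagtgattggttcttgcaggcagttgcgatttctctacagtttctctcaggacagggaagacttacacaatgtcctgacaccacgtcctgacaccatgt
RT1-T24-4: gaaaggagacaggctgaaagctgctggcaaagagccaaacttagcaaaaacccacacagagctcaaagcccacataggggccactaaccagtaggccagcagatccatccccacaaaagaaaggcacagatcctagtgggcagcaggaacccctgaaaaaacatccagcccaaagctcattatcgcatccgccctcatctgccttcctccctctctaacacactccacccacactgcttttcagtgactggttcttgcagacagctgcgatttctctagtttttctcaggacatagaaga
RT1-N3: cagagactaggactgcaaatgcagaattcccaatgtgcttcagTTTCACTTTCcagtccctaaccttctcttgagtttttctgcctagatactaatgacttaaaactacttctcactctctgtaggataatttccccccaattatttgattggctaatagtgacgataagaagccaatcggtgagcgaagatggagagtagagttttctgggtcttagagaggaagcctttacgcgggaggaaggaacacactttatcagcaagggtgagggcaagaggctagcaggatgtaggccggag
RT1-S3: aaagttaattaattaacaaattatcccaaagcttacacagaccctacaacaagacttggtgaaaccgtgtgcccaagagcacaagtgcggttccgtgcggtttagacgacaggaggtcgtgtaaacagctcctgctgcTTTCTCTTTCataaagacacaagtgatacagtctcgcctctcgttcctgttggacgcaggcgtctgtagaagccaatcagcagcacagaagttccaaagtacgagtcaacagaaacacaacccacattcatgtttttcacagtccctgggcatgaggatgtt
Tap1: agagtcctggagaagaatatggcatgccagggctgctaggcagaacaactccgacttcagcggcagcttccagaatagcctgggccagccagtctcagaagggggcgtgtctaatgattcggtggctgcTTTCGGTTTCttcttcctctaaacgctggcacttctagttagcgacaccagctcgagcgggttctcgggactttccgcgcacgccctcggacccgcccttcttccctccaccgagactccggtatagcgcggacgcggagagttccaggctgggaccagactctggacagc
Tapbp: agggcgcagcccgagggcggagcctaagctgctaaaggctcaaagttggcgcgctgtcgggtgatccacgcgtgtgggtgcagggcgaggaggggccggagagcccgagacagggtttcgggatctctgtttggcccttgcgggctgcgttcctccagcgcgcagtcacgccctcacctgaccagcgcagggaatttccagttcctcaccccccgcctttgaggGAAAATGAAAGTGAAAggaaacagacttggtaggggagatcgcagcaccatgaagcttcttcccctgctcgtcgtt
B2m: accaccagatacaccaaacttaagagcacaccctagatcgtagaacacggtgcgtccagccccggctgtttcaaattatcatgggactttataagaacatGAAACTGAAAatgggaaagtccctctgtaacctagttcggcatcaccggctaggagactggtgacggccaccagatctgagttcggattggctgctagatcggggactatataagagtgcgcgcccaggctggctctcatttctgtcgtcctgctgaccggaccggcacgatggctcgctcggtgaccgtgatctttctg

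The windows of RT1-T24-1 and RT1-T24-4 held no match to these letters, whereas those of RT1-N3, RT1-S3 and Tap1 held 1 each, at 207, 112 and 121 bases before the start. Tapbp held a pair of matches that overlap each other, beginning 26 and 20 bases before the start. The B2m match began 150 bases before the start and overlapped no other motif searched. Among all 33469 promoter windows of the table, 3.92% held a match, against 9 of the 34 windows of the set. The other matches were in Tap2, Psmb8, Psmb10 and RT1-S2. Psmb9 and RT1-CE4, which also rose with PDGF-BB, held none in these windows. An NF-kappaB consensus, which reads GGG, any 2 bases and TTTCC, was found in B2m, Tap1 and Tapbp, against 1.53% of all windows. A STAT consensus, which reads TTC, any 3 bases and GAA, was found in 2 of the 34 windows against 8.87% of all, CCAAT in 25 of the 34 against 37.5%, and TGACG in 8 of the 34 against 21.2%. Both strands were searched for each motif, and no match overlapped that of another motif. These are matches of letters and not measured binding sites.

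Some class I copies are alike in their promoter windows, and their transcribed sequences were not compared here. In global alignments with gaps, RT1-A2 and RT1-CE5 were identical at 82.7% of 300 positions, whereas RT1-T24-1 and RT1-T24-4 were identical at 60.0%, close to pairs such as RT1-N3 and RT1-S3 at 59.3%. The annotated spans of RT1-A1 and RT1-A2 overlap each other on the same strand, as do those of RT1-CE1, RT1-CE4, RT1-CE5 and RT1-CE7, while RT1-CE3 overlaps RT1-CE1 and RT1-CE4. The span of RT1-T24-1 overlaps AABR07044364.1, described as a class I alpha chain-like gene. In all, 16 RT1 genes have a span that overlaps another gene, and 12 of the 39 genes have a count that departs from a whole number by more than 1e-06 in at least 1 library. The departure exceeds 0.05 of a count in 6 of them: RT1-N3 in 9 libraries, RT1-CE4 and RT1-CE5 in 8 each, and Tapbp, RT1-M6-1 and RT1-CE1 in 1 to 3. In RT1-A1 and RT1-A2 it is at most 0.0015 and 0.001 of a count, and in RT1-T24-1 at most 0.0001. How fragments were divided between copies is not given in the sources used here, so values of single RT1 genes are uncertain to the extent that copies share reads.

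Testing was limited to genes that reached 1 FPKM in 3 or more of the 9 libraries. This kept 11197 genes and 18 of the 39, namely 11 class I RT1 genes and every non-RT1 gene of the set except Nlrc5. RT1-T24-1 and RT1-T24-4 passed this filter only with the help of the PDGF-BB libraries, since only 2 libraries outside that group reached an FPKM of 1 in each. A gene was called where the Benjamini-Hochberg adjusted p of edgeR's quasi-likelihood test was under 0.05. The PDGF-BB libraries enter both of the first comparisons below, so a chance deviation in them moves both, in opposite directions.

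**Figure D1:**
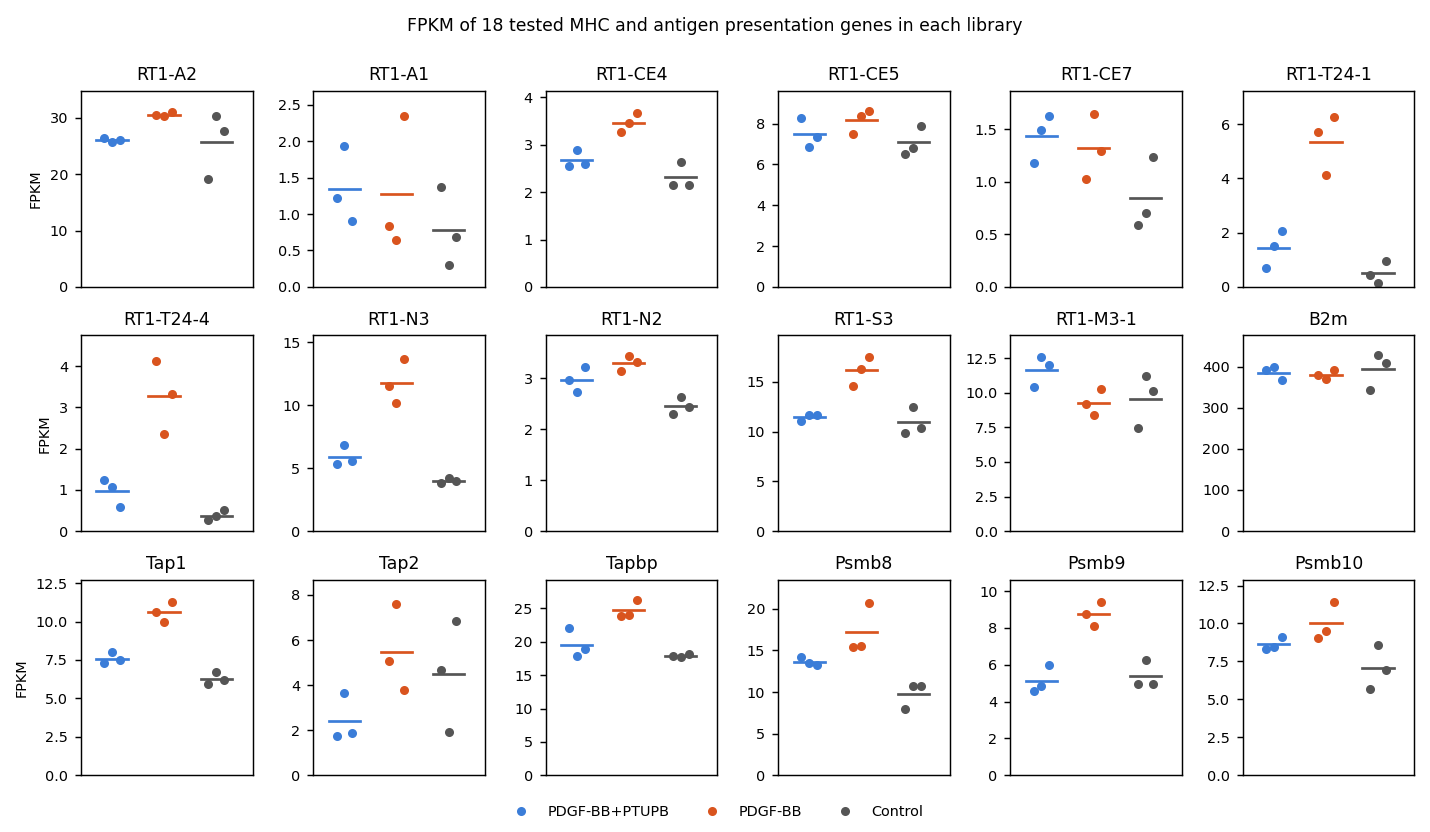
FPKM (linear axis from 0, scaled separately in each panel) of the 18 tested genes in each library, with PDGF-BB+PTUPB, PDGF-BB and Control from left to right and a line at each group's mean. RT1-T24-1, RT1-T24-4, RT1-N3, Tap1 and Psmb9 had all 3 PDGF-BB libraries above the 6 others, whereas B2m ranged from 343 to 429 FPKM with its groups overlapping.

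With PDGF-BB alone, 9 of the 18 tested genes rose against Control and 0 fell, where 33.2% of all 11197 tested genes were called, 17.3% higher and 15.8% lower. The 9 were RT1-T24-1, RT1-T24-4, RT1-N3, RT1-S3, RT1-CE4, Tap1, Tapbp, Psmb8 and Psmb9. Without the T24 pair, whose place among the tested genes depended on the PDGF-BB libraries, 7 of 16 rose. The median log2 fold change of the 18 genes was 0.50, and 0.46 without the T24 pair, beside -0.02 over all tested genes. FPKM in all 3 PDGF-BB libraries lay above all 3 Control libraries for 11 of the 18, where 27.9% of all tested genes did so. The T24 pair is among those 11, and its place there is partly fixed by the filter. The abundant light chain B2m and the most abundant heavy chain, RT1-A2, were not among the genes called. In bulk RNA such as this, fewer cells of a type and less RNA per cell cannot be told apart.

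With PTUPB before PDGF-BB, 6 of the 18 tested genes fell against PDGF-BB alone and 0 rose, where 18.3% of all tested genes were called, 10.0% lower and 8.28% higher. The 6 were RT1-T24-1, RT1-T24-4, RT1-N3, RT1-S3, Tap1 and Psmb9, and without the T24 pair 4 of 16 fell. The median log2 fold change of the 18 genes was -0.29, and -0.24 without the T24 pair, beside 0.01 over all tested genes. FPKM in all 3 PDGF-BB+PTUPB libraries lay below all 3 PDGF-BB libraries for 11 of the 18, where 25.2% of all tested genes did so. Those 11 include the T24 pair, whose place there is partly fixed by the filter.

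Between PDGF-BB+PTUPB and Control, edgeR called 0 of the 18 genes, where 2.21% of all tested genes were called, 1.89% higher and 0.313% lower. DESeq2 also called 0, and 6 of the 18 had an unadjusted p under 0.05 in edgeR. The median log2 fold change was 0.25, and 0.22 without the T24 pair, beside -0.01 over all tested genes. All 3 PDGF-BB+PTUPB libraries lay above all 3 Control libraries for 5 of the 18 (Psmb8, Tap1, RT1-N3, RT1-N2 and RT1-T24-4), where 14.0% of all tested genes did so, and below them for 0, where 7.14% did so. Without Control replicate 2 and PDGF-BB replicate 3, the libraries that stood apart, 4 genes were called, with Psmb8, Tap1 and RT1-N3 higher and Tap2 lower in PDGF-BB+PTUPB.

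**Figure D2:**
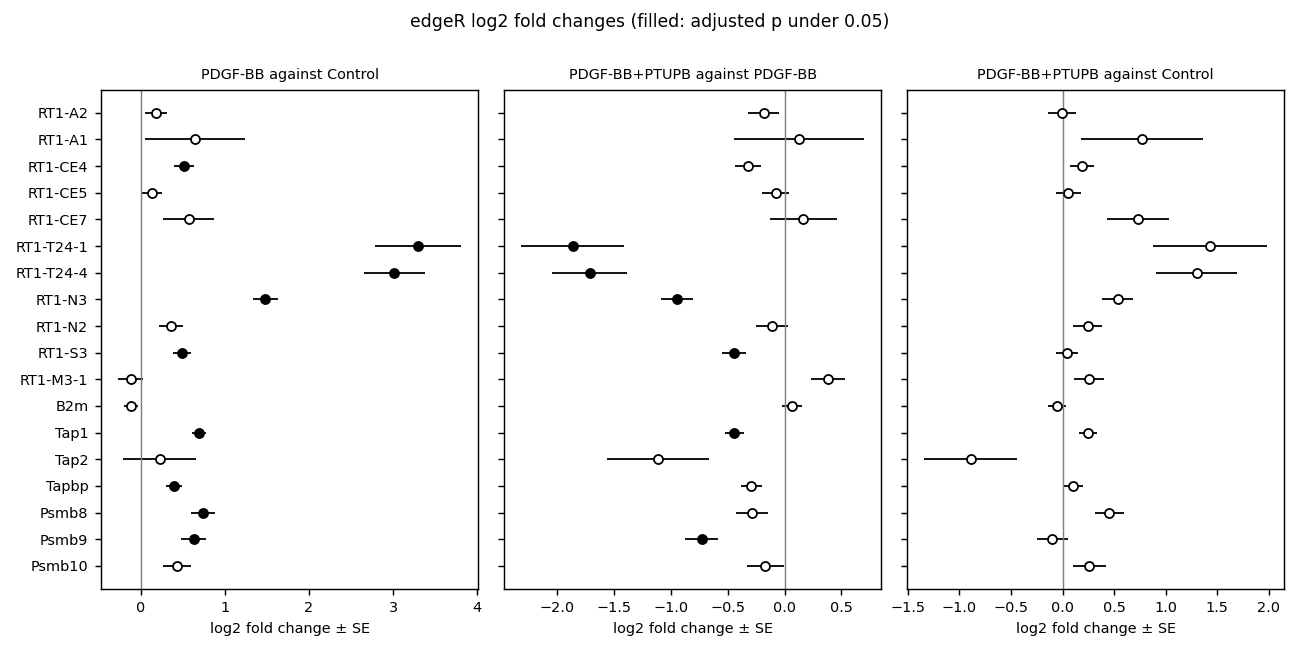
Log2 fold change from edgeR for the 18 tested genes in the 3 comparisons, with filled points for an adjusted p under 0.05. Horizontal bars are standard errors derived from edgeR's F statistic. In the left panel 9 genes are filled to the right of 0, in the middle panel 6 are filled to the left of 0, and in the right panel none is filled.

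RT1-T24-1 and RT1-T24-4, described as class I genes of locus T24, had the largest log2 changes among the 18 tested genes in each comparison. RT1-T24-1 (ENSRNOG00000032596) had 0.70, 1.52 and 2.07 FPKM in the PDGF-BB+PTUPB libraries, 5.71, 4.12 and 6.26 FPKM in the PDGF-BB libraries, and 0.44, 0.16 and 0.96 FPKM in the Control libraries. Every PDGF-BB library lay above every library of the other groups, while PDGF-BB+PTUPB and Control overlapped. The counts behind these values were low, 72 in PDGF-BB+PTUPB, 237 in PDGF-BB and 27 in Control over the 3 libraries of each group. Against Control, RT1-T24-1 rose 9.81-fold with PDGF-BB (log2 3.29 ± 0.51 SE, adjusted p = 0.000971). Without Control replicate 3, which held 17 of the 27 Control counts, that log2 value was 4.12, and on the log2(FPKM + 1) scale, which understates changes of low genes, it was 2.08. With PTUPB, RT1-T24-1 fell against PDGF-BB (log2 -1.86 ± 0.45 SE, adjusted p = 0.0189). That call was lost without PDGF-BB+PTUPB replicate 1 (adjusted p = 0.0699), without PDGF-BB+PTUPB replicate 2 (0.0611) and without PDGF-BB replicate 1 (0.0521). Against Control, the log2 value of PDGF-BB+PTUPB was 1.43 ± 0.55 (SE, adjusted p = 0.294).

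RT1-T24-4 (ENSRNOG00000042905) followed the same order, with 1.24, 1.06 and 0.59 FPKM in PDGF-BB+PTUPB, 4.12, 2.36 and 3.33 FPKM in PDGF-BB, and 0.26, 0.36 and 0.51 FPKM in Control. Its 3 groups did not overlap, and PDGF-BB+PTUPB lay between the others. It rose 8.09-fold with PDGF-BB against Control (log2 3.02 ± 0.37 SE, adjusted p = 0.000214) and fell with PTUPB against PDGF-BB (log2 -1.71 ± 0.33 SE, adjusted p = 0.00659). On the log2(FPKM + 1) scale these values were 1.62 and -1.11. The remaining T24 gene, RT1-T24-3, was not tested, with 3 counts in PDGF-BB+PTUPB, 10 in PDGF-BB and 7 in Control. AABR07044364.1, which overlaps RT1-T24-1 and is not in the set, had 0.16, 0.13 and 0.08 FPKM in PDGF-BB+PTUPB, 0.34, 0.25 and 0.50 FPKM in PDGF-BB, and 0 in each Control library.

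RT1-N3 and RT1-S3 are class Ib genes, that is, non-classical class I genes. RT1-N3 (ENSRNOG00000000795) had 5.29, 6.84 and 5.58 FPKM in PDGF-BB+PTUPB, 11.5, 10.1 and 13.6 FPKM in PDGF-BB, and 3.80, 4.25 and 3.97 FPKM in Control. Its 3 groups did not overlap. It rose 2.79-fold with PDGF-BB against Control (log2 1.48 ± 0.15 SE, adjusted p = 7.03e-05) and fell with PTUPB against PDGF-BB (log2 -0.95 ± 0.14 SE, adjusted p = 0.00255). RT1-S3 (ENSRNOG00000000777) had 11.1, 11.7 and 11.7 FPKM in PDGF-BB+PTUPB, 14.6, 16.3 and 17.5 FPKM in PDGF-BB, and 9.90, 12.5 and 10.4 FPKM in Control. All PDGF-BB libraries of RT1-S3 lay above the others, and PDGF-BB+PTUPB overlapped Control. RT1-S3 rose with PDGF-BB (log2 0.49 ± 0.11 SE, adjusted p = 0.00549) and fell with PTUPB (log2 -0.45 ± 0.11 SE, adjusted p = 0.0170). The fall was not called without PDGF-BB+PTUPB replicate 1 (adjusted p = 0.0692) or replicate 2 (0.0554). RT1-N3, RT1-S3 and RT1-T24-4 overlap the span of AABR07044362.4 on the opposite strand, which had 1.34 to 1.99 FPKM in PDGF-BB+PTUPB, 1.41 to 1.89 FPKM in PDGF-BB and 1.79 to 1.99 FPKM in Control. Whether counting used strand is not stated, so reads of such partners cannot be told apart.

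The other class Ib genes with tested levels did not follow this pattern beyond the threshold. RT1-N2 had 2.97, 2.73 and 3.22 FPKM in PDGF-BB+PTUPB, 3.15, 3.44 and 3.32 FPKM in PDGF-BB, and 2.31, 2.64 and 2.43 FPKM in Control. PDGF-BB lay above Control in every library, with an adjusted p of 0.0827 (log2 0.35 ± 0.14 SE), which was under 0.05 in 3 of 19 alternative analyses. RT1-M3-1 belongs to the M3 locus, whose mouse counterpart H2-M3 presents N-formylated peptides. It had 10.4, 12.6 and 12.0 FPKM in PDGF-BB+PTUPB, 9.16, 8.37 and 10.3 FPKM in PDGF-BB, and 7.46, 11.2 and 10.1 FPKM in Control. It was the one tested gene of the set whose PDGF-BB+PTUPB libraries all lay above the PDGF-BB libraries, with a log2 value of 0.38 ± 0.15 (SE) and an adjusted p of 0.108. Of all tested genes, 16.2% had their libraries in that order. The remaining class Ib genes, RT1-S2, RT1-M2, RT1-M4 and RT1-M5, were at 0 in every library.

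RT1-A1 and RT1-A2 are the classical, class Ia, heavy chain genes. RT1-A2 (ENSRNOG00000030712) had 26.4, 25.7 and 26.1 FPKM in PDGF-BB+PTUPB, 30.4, 30.3 and 31.0 FPKM in PDGF-BB, and 19.1, 30.4 and 27.6 FPKM in Control. Control spread more widely than either treated group and overlapped both, while every PDGF-BB+PTUPB library lay below every PDGF-BB library. The log2 value was 0.18 ± 0.14 for PDGF-BB against Control (SE, adjusted p = 0.327) and -0.18 ± 0.14 for PDGF-BB+PTUPB against PDGF-BB (adjusted p = 0.388). RT1-A1 ranged from 0.90 to 1.93 FPKM in PDGF-BB+PTUPB, 0.65 to 2.34 FPKM in PDGF-BB and 0.30 to 1.37 FPKM in Control, with all groups overlapping.

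Of the RT1-CE genes, the class I genes of the C/E region, RT1-CE4 was called. RT1-CE4 (ENSRNOG00000039744) had 2.56, 2.88 and 2.60 FPKM in PDGF-BB+PTUPB, 3.26, 3.45 and 3.68 FPKM in PDGF-BB, and 2.15, 2.64 and 2.16 FPKM in Control. All PDGF-BB libraries lay above the rest. It rose with PDGF-BB against Control (log2 0.51 ± 0.12 SE, adjusted p = 0.00741), and the PTUPB contrast against PDGF-BB had a log2 value of -0.32 ± 0.12 (SE, adjusted p = 0.0810). RT1-CE5, whose span overlaps that of RT1-CE4, had 8.28, 6.86 and 7.35 FPKM in PDGF-BB+PTUPB, 7.50, 8.38 and 8.61 FPKM in PDGF-BB, and 6.52, 6.82 and 7.90 FPKM in Control. Its groups overlapped, with a log2 value of 0.14 ± 0.12 for PDGF-BB against Control (SE, adjusted p = 0.411). RT1-CE7 ranged from 1.18 to 1.63 FPKM in PDGF-BB+PTUPB, 1.03 to 1.64 FPKM in PDGF-BB and 0.59 to 1.24 FPKM in Control, with a log2 value of 0.57 ± 0.31 (SE, adjusted p = 0.181) for PDGF-BB against Control. Without Control replicate 3 that value was 0.96 and was called (edgeR adjusted p = 0.040). RT1-CE1, RT1-CE3 and RT1-CE10 were not tested and stayed below 1 FPKM in every library. RT1-CE3 had 10 counts in PDGF-BB+PTUPB, 15 in PDGF-BB and 1 in Control.

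Summing the copies sets aside how reads were divided between them within the set. All 21 class I genes together had 142 ± 4.71 TMM-scaled CPM (SD, n = 3; CPM is a count scaled to library depth) in PDGF-BB+PTUPB, 172 ± 13.9 CPM in PDGF-BB and 126 ± 14.96 CPM in Control. All 3 PDGF-BB sums, from 161 to 188 CPM, lay above the PDGF-BB+PTUPB sums, from 138 to 147 CPM, and above the Control sums, from 109 to 137 CPM. The class Ia pair summed to 47.5 ± 1.23 CPM in PDGF-BB+PTUPB, 53.2 ± 3.44 CPM in PDGF-BB and 46.0 ± 7.89 CPM in Control. The 19 other class I genes summed to 94.2 ± 4.22 CPM in PDGF-BB+PTUPB, 119 ± 10.5 CPM in PDGF-BB and 79.6 ± 7.08 CPM in Control. The ratio of the PDGF-BB mean to the Control mean was 1.15 for the class Ia pair and 1.49 for the other class I genes. RT1-N3 made up 7.56% of the class I sum in PDGF-BB+PTUPB, 12.0% in PDGF-BB and 5.95% in Control, and RT1-A2 made up 30.9%, 29.0% and 34.6% in the same groups.

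**Figure D3:**
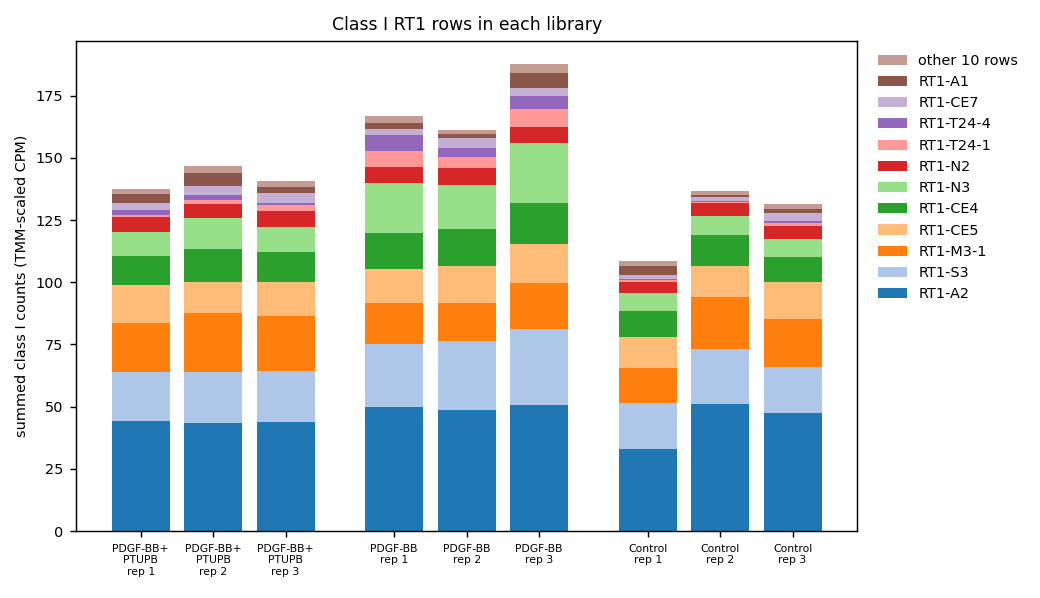
Summed counts of the 21 class I RT1 genes in each library (TMM-scaled CPM, linear axis from 0), stacked by gene, with the 10 genes that were not tested in 1 block. The PDGF-BB bars reach 161 to 188 CPM, above the PDGF-BB+PTUPB bars at 138 to 147 CPM and the Control bars at 109 to 137 CPM.

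B2m (ENSRNOG00000017123), the light chain that every class I heavy chain of this kind needs, was by far the most abundant gene of the set. It had 391, 399 and 367 FPKM in PDGF-BB+PTUPB, 379, 370 and 392 FPKM in PDGF-BB, and 343, 429 and 409 FPKM in Control. The groups overlapped. The log2 value was -0.12 ± 0.09 for PDGF-BB against Control (SE, adjusted p = 0.323) and 0.06 ± 0.09 for PDGF-BB+PTUPB against PDGF-BB (adjusted p = 0.652).

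The peptide transporter and loading genes differed among themselves. Tap1 (ENSRNOG00000000457), one chain of the transporter, had 7.29, 7.99 and 7.47 FPKM in PDGF-BB+PTUPB, 10.6, 9.94 and 11.3 FPKM in PDGF-BB, and 5.93, 6.70 and 6.21 FPKM in Control. Its 3 groups did not overlap. Tap1 rose 1.61-fold with PDGF-BB against Control (log2 0.69 ± 0.09 SE, adjusted p = 0.000242) and fell with PTUPB against PDGF-BB (log2 -0.44 ± 0.08 SE, adjusted p = 0.00672). Tap2 (ENSRNOG00000000455), the other chain, had 1.76, 3.67 and 1.86 FPKM in PDGF-BB+PTUPB, 5.05, 7.60 and 3.80 FPKM in PDGF-BB, and 4.66, 1.93 and 6.83 FPKM in Control. Its libraries spread widely within each group, and Control overlapped both other groups. The log2 value of Tap2 was 0.22 ± 0.43 for PDGF-BB against Control (SE, adjusted p = 0.723) and -1.11 ± 0.45 for PDGF-BB+PTUPB against PDGF-BB (adjusted p = 0.116). DESeq2 called the second (adjusted p = 0.0387), as did edgeR without Control replicate 2 (0.0430).

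Tapbp (ENSRNOG00000029500), which encodes tapasin, had 22.0, 17.9 and 18.9 FPKM in PDGF-BB+PTUPB, 23.9, 24.1 and 26.2 FPKM in PDGF-BB, and 17.9, 17.7 and 18.1 FPKM in Control. Every PDGF-BB library lay above the others. It rose with PDGF-BB against Control (log2 0.40 ± 0.09 SE, adjusted p = 0.00925). Against PDGF-BB, PDGF-BB+PTUPB had a log2 value of -0.29 ± 0.09 (SE, adjusted p = 0.0552), which was called in 5 of 19 alternative analyses. Nlrc5 (ENSRNOG00000048222), the class I transactivator, was too low to be tested, with 0.14, 0.05 and 0.08 FPKM in PDGF-BB+PTUPB, 0.23, 0.19 and 0.13 FPKM in PDGF-BB, and 0.18, 0.03 and 0.19 FPKM in Control. These values rest on 22, 41 and 34 counts per group in that order.

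Psmb8, Psmb9 and Psmb10 encode the catalytic subunits that replace Psmb5, Psmb6 and Psmb7 in the immunoproteasome. Psmb8 (ENSRNOG00000000456) had 14.2, 13.5 and 13.3 FPKM in PDGF-BB+PTUPB, 15.4, 15.5 and 20.7 FPKM in PDGF-BB, and 7.98, 10.7 and 10.7 FPKM in Control. Its 3 groups did not overlap. It rose with PDGF-BB against Control (log2 0.74 ± 0.14 SE, adjusted p = 0.00304). Its contrast of PDGF-BB+PTUPB against PDGF-BB had a log2 value of -0.29 ± 0.14 (SE, adjusted p = 0.185). Psmb9 (ENSRNOG00000000459) had 4.57, 4.83 and 5.98 FPKM in PDGF-BB+PTUPB, 8.73, 8.12 and 9.41 FPKM in PDGF-BB, and 4.97, 6.26 and 4.94 FPKM in Control. PDGF-BB+PTUPB overlapped Control, and both lay below PDGF-BB. Psmb9 rose with PDGF-BB against Control (log2 0.63 ± 0.15 SE, adjusted p = 0.00846) and fell with PTUPB against PDGF-BB (log2 -0.73 ± 0.15 SE, adjusted p = 0.00869). Psmb10 (ENSRNOG00000019494) had 8.35, 8.46 and 9.13 FPKM in PDGF-BB+PTUPB, 9.07, 9.53 and 11.4 FPKM in PDGF-BB, and 5.71, 8.55 and 6.95 FPKM in Control. The PDGF-BB libraries of Psmb10 lay above Control, with an adjusted p of 0.0657 (log2 0.43 ± 0.16 SE), which was under 0.05 in 5 of 19 alternative analyses.

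Proteasome genes outside the set moved too, among them the constitutive subunits Psmb5, Psmb6 and Psmb7. Of 9 other proteasome genes, Psmb5, Psmb6, Psmb7, Psme1, Psme2 and Pomp rose with PDGF-BB against Control, 0 fell, and 5 of the 9 fell with PTUPB against PDGF-BB. With each library left out in turn, that count of 5 ranged from 2 to 6. Among all tested genes, 17.3% rose with PDGF-BB against Control and 10.0% fell with PTUPB against PDGF-BB. Psmb7 had a log2 value of 0.66 ± 0.11 (SE) for PDGF-BB against Control and Psmb6 one of 0.64 ± 0.11. Psme2, a subunit of the proteasome activator PA28, had a log2 value of 0.74 ± 0.12, and Pomp, a proteasome assembly factor, one of 0.73 ± 0.13. The FPKM ratio of Psmb9 to Psmb6 was 0.0917 ± 0.0117 in PDGF-BB+PTUPB, 0.107 ± 0.00769 in PDGF-BB and 0.107 ± 0.00971 in Control (SD, n = 3). The ratio of Psmb8 to Psmb5 was 0.157 ± 0.00271 in PDGF-BB+PTUPB, 0.147 ± 0.00690 in PDGF-BB and 0.125 ± 0.0188 in Control. The ratio of Psmb10 to Psmb7 was 0.183 ± 0.00364 in PDGF-BB+PTUPB, 0.144 ± 0.00243 in PDGF-BB and 0.168 ± 0.0177 in Control. For Psmb8 the PDGF-BB ratios, from 0.143 to 0.155, lay above the Control ratios, from 0.104 to 0.141. For Psmb9 PDGF-BB and Control overlapped, and for Psmb10 the 3 PDGF-BB libraries were the lowest of the 9.

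None of the 10 class II genes passed the filter, and 6 of them, RT1-Ba, RT1-Bb, RT1-Da, RT1-Db2, RT1-DOb and RT1-Ha, were at 0 in every library. The highest was RT1-DMa, one chain of the DM molecule that exchanges peptides on class II, with 0.92, 0.79 and 1.24 FPKM in PDGF-BB+PTUPB, 0.72, 0.93 and 0.75 FPKM in PDGF-BB, and 0.33, 0.65 and 0.56 FPKM in Control. PDGF-BB and PDGF-BB+PTUPB overlapped, and both lay above Control. These RT1-DMa values rest on 74, 54 and 42 counts per group in that order. Where every gene with any count was fitted, RT1-DMa was not called against Control. Its edgeR adjusted p was 0.319 for PDGF-BB and 0.374 for PDGF-BB+PTUPB. The other chain, RT1-DMb, stayed at or below 0.24 FPKM in every library. Of 12 class II transactivation and chaperone genes, 8 were tested. Nfya, a subunit of the CCAAT-binding factor NF-Y, fell with PDGF-BB against Control (log2 -0.40 ± 0.08 SE, adjusted p = 0.00424) and rose with PTUPB against PDGF-BB (log2 0.37 ± 0.08 SE, adjusted p = 0.0113). The protease gene Ctsl rose with PDGF-BB (log2 0.33 ± 0.11 SE, adjusted p = 0.0476), and no other gene of the list was called in either comparison. Ciita, the class II transactivator, and Cd74, the invariant chain, were named after their values were seen and had at most 0.21 and 0.22 FPKM in any library.

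**Figure D4:**
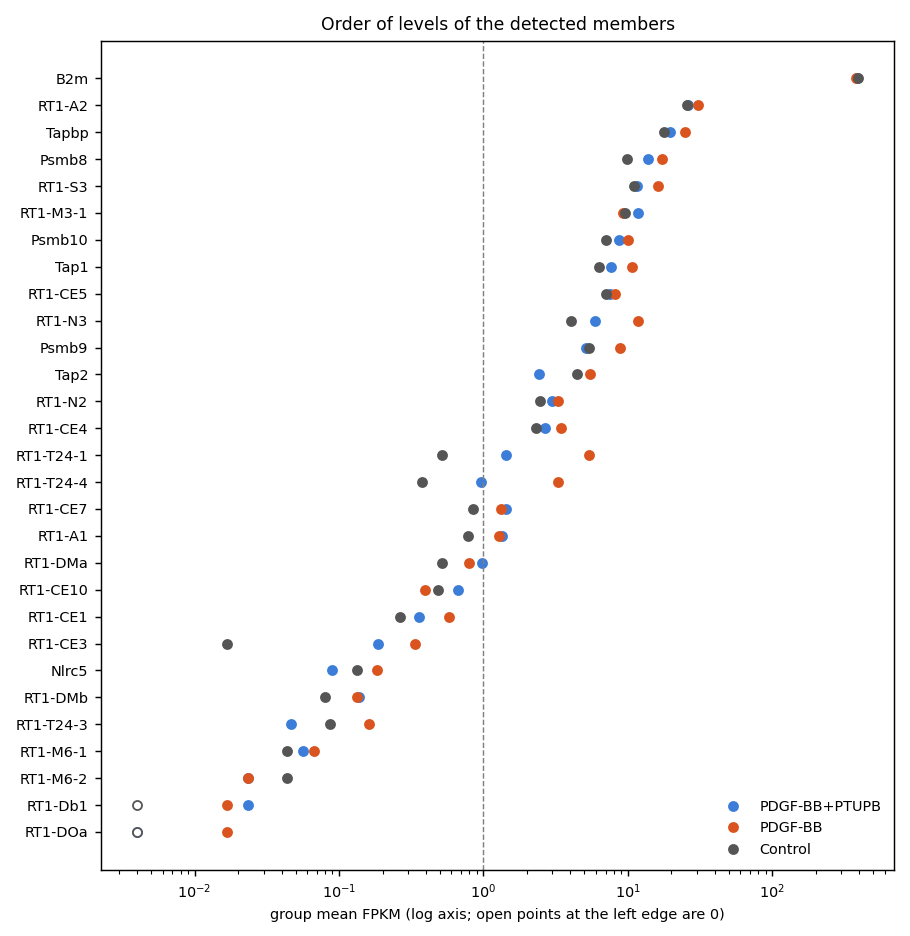
Group means of FPKM (log axis) for the 29 genes of the set with any count, ordered by the mean over 9 libraries, with open points at the left edge for groups at 0 and a dashed line at 1 FPKM. B2m stands at 380 to 394 FPKM, and RT1-T24-1 and RT1-T24-4 have Control means of 0.52 and 0.38 FPKM and PDGF-BB means of 5.36 and 3.27 FPKM.

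By level per length over the 9 libraries, B2m averaged 387 FPKM, RT1-A2 27.5, Tapbp 20.7, Psmb8 13.6, RT1-S3 12.9 and RT1-M3-1 10.2. RT1-A2 and Tapbp overlapped in their ranges over libraries, as did Psmb8, RT1-S3 and RT1-M3-1. The mean of B2m exceeded those of 98.3% of all tested genes. Psmb10, Tap1, RT1-CE5, RT1-N3, Psmb9 and Tap2 followed with means between 8.58 and 4.13 FPKM, and RT1-N2, RT1-CE4, RT1-T24-1, RT1-T24-4, RT1-CE7 and RT1-A1 with means between 2.91 and 1.14 FPKM. RT1-N3 was the 10th of the set over all libraries, and its mean in PDGF-BB, 11.8 FPKM, exceeded that of Tap1, 10.6 FPKM.

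Of 24 tested interferon-induced effector genes, 16 rose with PDGF-BB against Control and 0 fell, with a median log2 value of 0.83. Among all tested genes, 17.3% rose and 15.8% fell. With PTUPB against PDGF-BB, 12 of the 24 fell and 0 rose, with a median of -0.62, where 10.0% of all tested genes fell and 8.28% rose. Oas1a, Mx2, Rsad2, Cmpk2, Gbp4, Dhx58 and Ifit3 passed the filter only with the help of the PDGF-BB libraries. All of them are among the rises and all but Gbp4 among the falls, and their place there is partly fixed by the filter. With each library left out in turn, the 16 rises ranged from 13 to 18 and the 12 falls from 9 to 14. Without both Control replicate 2 and PDGF-BB replicate 3, 18 rose with PDGF-BB against Control and 17 fell with PTUPB against PDGF-BB. The 4 with the smallest p for PDGF-BB against Control were Cxcl10, a T cell chemokine, at a log2 value of 2.60 ± 0.26 (SE), Ifi44 at 0.80 ± 0.09, the antiviral GTPase Mx2 at 3.10 ± 0.38 and the guanylate-binding protein Gbp2 at 0.63 ± 0.08. With PTUPB against PDGF-BB, their log2 values were -2.49 ± 0.26 for Cxcl10, -0.61 ± 0.09 for Ifi44, -3.71 ± 0.41 for Mx2 and -0.32 ± 0.08 for Gbp2, all called.

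Receptors and signalling genes of the interferon pathway were mixed, with 3 of 18 tested genes higher and 7 lower with PDGF-BB against Control. Of all tested genes, 17.3% were called higher and 15.8% lower, so the share called higher is near that of all genes. Irf7, an interferon regulatory factor, had 4.43, 4.21 and 4.76 FPKM in PDGF-BB+PTUPB, 12.7, 13.5 and 18.3 FPKM in PDGF-BB, and 4.41, 4.35 and 4.59 FPKM in Control. PDGF-BB+PTUPB overlapped Control. Irf7 rose with PDGF-BB (log2 1.67 ± 0.15 SE, adjusted p = 3.69e-05) and fell with PTUPB (log2 -1.69 ± 0.15 SE, adjusted p = 0.000562). The receptor genes Ifngr1 and Ifnar1 fell with PDGF-BB against Control, by 0.82 ± 0.09 and 0.40 ± 0.07 on the log2 scale (SE), and the kinase gene Jak1 fell by 0.48 ± 0.09. With PTUPB against PDGF-BB, Ifngr1 rose (log2 0.80 ± 0.09 SE, adjusted p = 0.000670), as did Jak1 (log2 0.30 ± 0.09 SE, adjusted p = 0.0441), while Ifnar1 had an adjusted p of 0.0509. Over the list, 4 rose and 3 fell in that comparison, and the count of 4 ranged from 1 to 5 when single libraries were left out. Among all tested genes, 8.28% rose and 10.0% fell there. Irf1 and Ifnb1 were named after their values were seen. Irf1 had an edgeR adjusted p of 0.202 for PDGF-BB against Control (log2 0.22 ± 0.12 SE), and Ifnb1, which encodes interferon beta, was at 0 in every library.

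General folding and trimming genes of the class I pathway stayed mostly uncalled, with 1 of 12 tested genes higher and 1 lower with PDGF-BB against Control. For this and the next lists, 17.3% of all tested genes were called higher and 15.8% lower in that comparison. The peptidase gene Thop1 rose with PDGF-BB (log2 0.87 ± 0.10 SE) and fell with PTUPB (log2 -0.61 ± 0.10 SE), and the chaperone gene Hspa5 fell with PDGF-BB (log2 -0.44 ± 0.09 SE). Among class I-like genes outside RT1, Procr, the endothelial protein C receptor, rose with PDGF-BB (log2 0.80 ± 0.18 SE). The neonatal Fc receptor gene Fcgrt and Mr1, which presents vitamin B metabolites, fell (log2 -0.65 ± 0.12 and -0.49 ± 0.15 SE). They were the 3 genes called of 6 tested. Of 7 tested costimulation and immune ligand genes, Cd80, Cd47 and Pvr rose and Icam1 fell with PDGF-BB against Control. Cd80, a ligand that costimulates T cells, had a log2 value of 1.05 ± 0.14 (SE), Pvr one of 0.57 ± 0.13, Cd47 one of 0.37 ± 0.09 and Icam1 one of -0.68 ± 0.09. With PTUPB against PDGF-BB, Cd80, Cd47 and Pvr fell and Icam1 rose, where 10.0% of all tested genes fell and 8.28% rose.

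**Figure D5:**
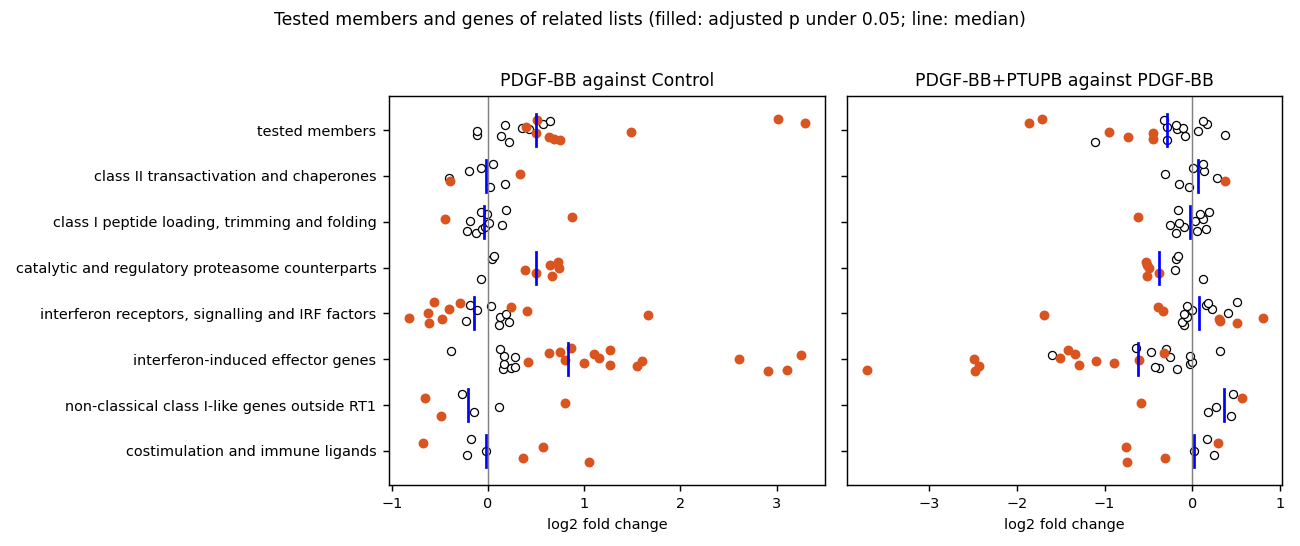
Log2 fold changes of the 18 tested genes of the set and of tested genes in 7 related lists, for PDGF-BB against Control (left) and PDGF-BB+PTUPB against PDGF-BB (right), with filled points for an adjusted p under 0.05 and a line at each median. The medians of the set are 0.50 and -0.29, and those of the interferon-induced effector genes are 0.83 and -0.62. Without RT1-T24-1 and RT1-T24-4, the medians of the set are 0.46 and -0.24. The interferon-induced medians include genes that passed the filter only with the help of the PDGF-BB libraries.

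Markers of other cells were measured beside these results. Of 18 leukocyte and antigen-presenting cell markers, 8 were at 0 in every library (among them Ptprc, Cd3e and Tyrobp) and 3 were tested. Their summed level was 23.3 to 24.2 FPKM in PDGF-BB+PTUPB, 17.6 to 19.4 FPKM in PDGF-BB and 17.5 to 26.5 FPKM in Control, most of it from Cd14. Their part in the RT1 results was not tested. Lyz2, the lysozyme gene of myeloid cells, fell with PDGF-BB against Control (log2 -1.80 ± 0.24 SE, adjusted p = 0.000343) and rose with PTUPB against PDGF-BB (log2 1.61 ± 0.24 SE, adjusted p = 0.00234). Cd14, a monocyte receptor for bacterial lipopolysaccharide, also rose with PTUPB (log2 0.47 ± 0.13 SE, adjusted p = 0.0304). Cd68 was called in neither comparison, with log2 values of 0.11 ± 0.28 and -0.14 ± 0.28 (SE). Itgax was too low to be tested and went the other way from Lyz2. It had 0.06 to 0.12 FPKM in PDGF-BB+PTUPB, 0.23 to 0.56 FPKM in PDGF-BB and 0.03 to 0.18 FPKM in Control. Of 9 endothelial markers in the table, 5 were at 0 in every library (Cdh5, Tie1, Emcn, Cldn5 and Kdr), and the list summed to 14.9 to 17.3 FPKM in PDGF-BB+PTUPB, 12.4 to 14.4 FPKM in PDGF-BB and 12.2 to 13.0 FPKM in Control, nearly all of it from Egfl7, which rose with PTUPB against PDGF-BB (log2 0.32 ± 0.10 SE, adjusted p = 0.0429). Among 7 tested smooth muscle markers, Myh11, Mylk, Acta2 and Lmod1 fell with PDGF-BB against Control, and Myh11 and Mylk rose with PTUPB against PDGF-BB. Of all tested genes, 15.8% fell in the first comparison and 8.28% rose in the second. Myh11, the smooth muscle myosin heavy chain, had log2 values of -1.04 ± 0.14 and 0.54 ± 0.14 (SE) in those comparisons.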

How the data were processed

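The tools cutadapt 1.9.1, HISAT2 2.0.1 and HTSeq 0.6.1 are named, without roles, per the submitters' processing notes. In the deposited table, 9 libraries each hold expected counts of 32623 genes. Values that depart from a whole number by more than 1e-06 occur for 978 genes, and by more than 0.05 for 583, and their origin is not given in the sources used here. The authors' FPKM in the same table equals counts per exonic length and library total, within 0.006, for 100% of values. The notes name the mouse build mm10, whereas the identifiers are rat Ensembl identifiers, so no coordinates of the table are printed.

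Counts were rounded and fitted with edgeR 4.0.16 in R 4.3.3 (TMM scaling, quasi-likelihood F test, two-sided, a single fit of the 9 libraries by group, with 6 residual degrees of freedom). The 11197 genes that reached 1 FPKM in 3 or more libraries were tested, and p-values were adjusted over all of them by Benjamini-Hochberg at 0.05. DESeq2 1.42.0, limma 3.58.1 on log2(FPKM + 1), other scalings and filters, a replicate block and leaving out libraries were alternatives. The fits were tested on simulated data. Totals of 12729187 to 16911050 counts make 3 counts worth 0.177 to 0.236 CPM, and this floor covers counting error only. Each SE is the absolute log2 fold change divided by the square root of edgeR's F statistic. SE and SD both include the spread between libraries.

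The members and lists were chosen with earlier results of these data known. Values per library are given for RT1-T24-1, non-RT1 members, the 8 most abundant RT1 members and called members, and up to 4 called genes per list are named by smallest p for PDGF-BB against Control. Raet1l, Icosl and Pecam1 had no row and were not analysed here. Promoter windows come from RefSeq (GRCr8) and were aligned with Biopython 1.88.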

Additional observations from a re-analysis of the deposited data

How the results depend on the processing

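The 9 rises with PDGF-BB against Control were called in all 19 alternatives. The count of the set's genes called ranged from 9 to 10 there with single libraries left out, from 4 to 7 for PDGF-BB+PTUPB against PDGF-BB, and stayed at 0 for PDGF-BB+PTUPB against Control, where it was 4 without Control replicate 2 and PDGF-BB replicate 3. Over all genes, the 2048 calls for PDGF-BB+PTUPB against PDGF-BB ranged from 1002 to 2463 with single libraries left out, lowest without PDGF-BB+PTUPB replicate 1. The 247 for PDGF-BB+PTUPB against Control ranged from 93 to 340, lowest without PDGF-BB+PTUPB replicate 3, and DESeq2 gave 444. Leaving out both Control replicate 2 and PDGF-BB replicate 3 gave 2818 calls for PDGF-BB+PTUPB against PDGF-BB and 1345 for PDGF-BB+PTUPB against Control. The 1942 higher and 1772 lower genes for PDGF-BB against Control became 2410 and 1350 with library totals as the scaling, and 2427 and 1283 with limma on log2(FPKM + 1). The 927 higher and 1121 lower genes for PDGF-BB+PTUPB against PDGF-BB became 760 and 1414, and 728 and 1419. The cause of these shifts was not tested.

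In the comparisons of PDGF-BB against Control and of PDGF-BB+PTUPB against PDGF-BB, uncalled log2 values changed sign in 7 cases. For PDGF-BB+PTUPB against Control, where no gene of the set was called, uncalled values near 0 also changed sign, for Psmb9 under 2 alternatives, RT1-CE5 and RT1-S3 under 1 each and RT1-A2 under 9. With single libraries left out, Tap2 for PDGF-BB against Control reached 0.67 at most and RT1-A1 1.31, and RT1-A1 for PDGF-BB+PTUPB against PDGF-BB was 0.92 without Control replicate 2 and PDGF-BB replicate 3. Tap2 for PDGF-BB against Control was -0.06 without PDGF-BB replicate 2 and -0.15 without Control replicate 2. RT1-A1 in that comparison was -0.14 without PDGF-BB replicate 3 and -0.55 with both Control replicate 2 and PDGF-BB replicate 3 left out. For PDGF-BB+PTUPB against PDGF-BB, RT1-A1 was -0.23 without PDGF-BB+PTUPB replicate 2, -0.10 without PDGF-BB replicate 1 and -0.20 without PDGF-BB replicate 2. RT1-CE3, at 1 Control count, was called for PDGF-BB against Control (edgeR adjusted p = 0.0286) where every gene with any count was fitted.

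Correlations of deviations from the group mean ranged from -0.26 to 0.17 between libraries of the same replicate number. Between libraries of different number they ranged from -0.26 to 0.25. With 3 libraries per group, these values cannot show whether the libraries were paired. With the replicate number as a block, 9, 6 and 0 of the set's genes were called in the 3 comparisons, and 3294, 1602 and 168 of all genes. Depth limits the tested genes RT1-T24-1 and RT1-T24-4, with 27 and 29 counts over the 3 Control libraries, and the untested genes, several of which had fewer.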
